A study of Mus musculus with 23 samples.

Results

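Day 4 myotubes were compared with the proliferating myoblasts of the same cultures, at the DNA fragments that AIMS-seq can amplify well. The libraries were 3 of myoblasts and 3 of day 4 myotubes, out of 23 in the series, and each of the cultures numbered 21, 26 and 27 gave 1 library to each stage. The fragments were those under 2000 bp on chromosomes 1 to 19, which are 49684 of the 173430 deposited. Primary myoblasts came from male C57BL/6J mice, for which the labels give no mutation or drug, and were taken at passage 8 to 10 in serum-rich growth medium with bFGF on collagen. The myotubes came from confluent myoblasts moved to matrigel and low-serum medium with horse serum for 4 days. Both stages are whole cultures: the share of nuclei that had fused was not given in the sources used here, so that a change in every nucleus and a change in some of them cannot be told apart. The libraries hold DNA only, so no expressed marker was available to check the cell types against their labels. The labels name the cultures by number and do not say whether each came from 1 animal.

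Myoblasts are the proliferating progenitors of skeletal muscle. On serum withdrawal they leave the cell cycle, switch on Myog under the control of MyoD family factors, fuse into multinucleated myotubes and build the contractile apparatus. Methylation of cytosine in CpG pairs is copied at replication by Dnmt1 and laid down afresh by Dnmt3a and Dnmt3b, and cells that no longer divide can lose it only by enzymatic removal. CpG islands, the CpG-dense stretches at many promoters, are mostly unmethylated in normal cells, whereas most CpGs elsewhere, and those of transposable elements, are mostly methylated.

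AIMS-seq reads this through the sequence CCCGGG. SmaI first cuts the sites whose CpG is unmethylated and leaves blunt ends, and XmaI then cuts the remaining, methylated sites and leaves cohesive ends, to which alone the adaptors bind. A read therefore comes from a molecule on which both neighbouring sites were methylated, and a higher read count stands for more such molecules. This reading needs SmaI to have cut every unmethylated site, which these files do not measure in any library, that of culture 27 at day 4 included. The count is no percentage of methylation. All 49684 fragments start and end at a cut site in the mm9 sequence.

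The following fragments show what is being counted, and were chosen for what is described of each further on. They are given 5′ to 3′ on the plus strand of mm9. Capitals mark the 3 bases that each cut site leaves at either end and every CpG between the ends. The intron of Dnmt3a and the coding exon of Susd4 passed the test, Myf5 is the fragment at an early myogenic factor, and Gng12 holds a LINE-1 stretch that was lower in every culture.
Dnmt3a, chr12:3808575-3808803, 229 bp: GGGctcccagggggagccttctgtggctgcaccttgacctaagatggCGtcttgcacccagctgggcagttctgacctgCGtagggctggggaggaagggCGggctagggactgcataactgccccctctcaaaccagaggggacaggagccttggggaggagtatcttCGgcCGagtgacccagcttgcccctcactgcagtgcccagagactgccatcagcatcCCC
Susd4, chr1:184822128-184822376, 249 bp: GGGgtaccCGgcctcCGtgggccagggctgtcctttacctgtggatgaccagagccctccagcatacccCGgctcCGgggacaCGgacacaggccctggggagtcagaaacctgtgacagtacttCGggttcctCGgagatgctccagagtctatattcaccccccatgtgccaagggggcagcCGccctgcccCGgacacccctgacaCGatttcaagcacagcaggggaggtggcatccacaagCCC
Myf5, chr10:106921116-106921344, 229 bp: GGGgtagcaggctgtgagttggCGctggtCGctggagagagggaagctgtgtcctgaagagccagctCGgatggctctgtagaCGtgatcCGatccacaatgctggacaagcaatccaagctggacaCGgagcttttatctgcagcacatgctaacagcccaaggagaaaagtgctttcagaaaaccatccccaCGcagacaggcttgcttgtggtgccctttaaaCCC
Gng12, chr6:66958042-66958197, 156 bp: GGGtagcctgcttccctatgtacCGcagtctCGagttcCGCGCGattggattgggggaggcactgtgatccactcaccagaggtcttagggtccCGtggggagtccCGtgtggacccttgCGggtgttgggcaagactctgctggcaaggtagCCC
The Dnmt3a fragment holds 5 CpGs between its ends in 63.8% GC, that of Susd4 10 in 64.3%, that of Myf5 7 in 55% and that of Gng12 8 in 62.2%.

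The 6 libraries held 7184895 to 12977649 reads in these fragments, 92.4% to 96.3% of all their reads. Of the fragments, 22459 had no read in any of the 6 libraries and 16481 (33.2%) had enough reads to be tested. The day 4 library of culture 27 stood apart before any comparison: it held the most reads and the most fragments with 5 or more reads (19466, against 13751 to 17247 in the other 5). Its log levels had a correlation of 0.86 across fragments with those of its own myoblasts, where the same value was 0.96 in culture 21 and 0.97 in culture 26. Fragments are not independent replicates, and these correlations describe the libraries only. Each result below is therefore given by culture.

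At 33 of the 16481 fragments the level was higher in day 4 myotubes than in myoblasts (edgeR quasi-likelihood test with the culture as a block, Benjamini-Hochberg adjusted p under 0.05), which is 0.2% of those tested, and at 0 (0.0%) it was lower. The log2 changes of the 33 ran from 2.53 to 4.85. At an unadjusted p under 0.05 there were 712 fragments higher and 82 lower, together 4.82% of those tested, and the smallest adjusted p of a lower fragment was 0.289. DESeq2 with the same block called 11 higher and 0 lower, 9 of the 11 being among the 33. The median log2 change over all tested fragments was -0.01. The count was 0 when culture 27 was left out, 0 without culture 26, and 296 higher with 1 lower without culture 21. It was also 0 when the culture was not in the model. Of the 33, only 12 had enough reads to be tested without culture 27, 22 without culture 26 and 21 with no culture in the model.

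The cultures differed from each other far more often than the stages did. A test of the culture terms in the same fit, added once the data had been seen, called 8128 fragments, 49.3% of those tested. The median absolute log2 difference between stages was 0.59 in culture 21, 0.32 in culture 26 and 0.71 in culture 27. Between cultures at the same stage it ran from 0.62 (26 against 27, myoblasts) to 1.80 (21 against 27, day 4). The libraries of culture 26 thus differed least between stages, and those of cultures 21 and 27 at day 4 were the farthest apart.

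Within each culture many fragments differed between stages, mostly without a common direction. On the scale of log2(CPM + 0.5), where CPM is the read count per library scaled to a common total with TMM, culture 21 had 1013 fragments at least 2-fold higher at day 4 and 2365 at least 2-fold lower. In culture 26 these were 716 and 564, and in culture 27 they were 3163 and 2160. Differences of 8-fold or more upward were found at 355 fragments in culture 27 and at 0 in cultures 21 and 26. A difference of the same sign in all 3 cultures was found at 3378 fragments (20.5%), 1654 higher and 1724 lower, and one of at least 2-fold in all 3 at 6 higher and 5 lower. The 3 myoblast and 3 day 4 levels did not overlap at 290 fragments (1.76%).

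**Figure D1:**
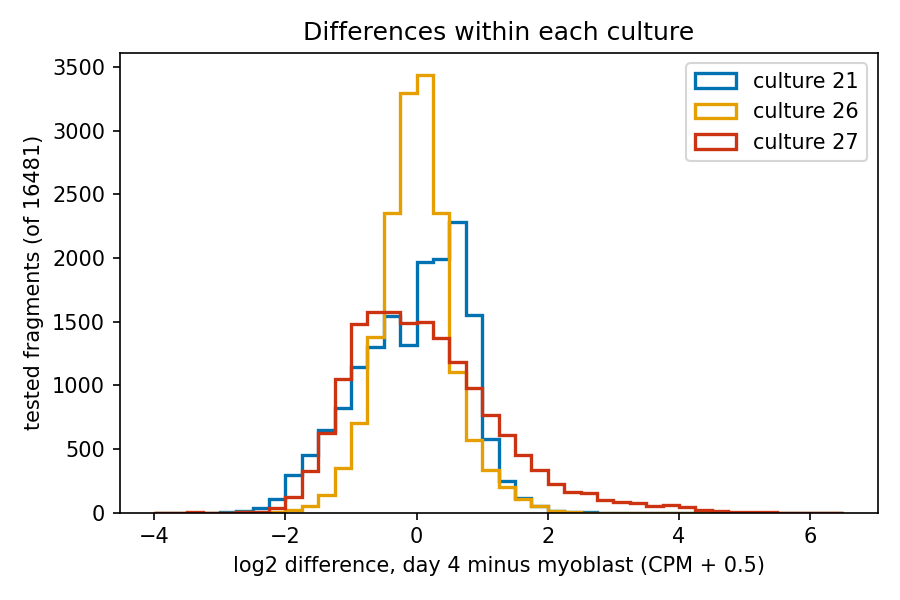
Number of the 16481 tested fragments (y axis) by their log2 difference, day 4 minus myoblast, on log2(CPM + 0.5) (x axis, bins of equal width), 1 line for each culture. Culture 26 is narrowest, and only the line of culture 27 runs on past 3, an 8-fold difference, with 355 fragments there.

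The 33 called fragments had few reads in myoblasts and many in the day 4 library of culture 27. On the scale of CPM over fragments under 2000 bp, here without TMM scaling, they took 1.14 in culture 21, 40.1 in culture 26 and 57.5 in culture 27 at the myoblast stage. At day 4 they took 3.28, 172 and 1566. The level in culture 27 thus stands far above the other 2 cultures. All 33 had their highest level, among the 12 libraries of the 3 cultures, in the day 4 library of culture 27. All 33 were higher at day 4 in cultures 26 and 27, and 12 were higher in culture 21, where 32 of them had under 10 reads in both libraries. Some, such as Rin2, Prex1 and Slit1, had enough reads to be tested only through the day 4 libraries of cultures 26 and 27. For these the rise in both cultures was largely set by the filter and the call. The median log2(CPM + 0.5) difference was 0 in culture 21, 1.53 in culture 26 and 4.21 in culture 27. At 2 of the 33, Prex1 and Slit1, myoblast and day 4 levels did not overlap, beside 290 of all 16481 tested (1.76%). Both were tested only through the day 4 libraries of cultures 26 and 27, so this separation is no separate support for them.

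The fragment with the smallest p lay inside Vwf, which encodes the clotting glycoprotein that endothelial cells store, on a coding exon next to the annotated start of a shorter non-coding transcript (chr6:125553214-125553557). Its reads in cultures 21, 26 and 27 were 0, 2 and 13 in myoblasts and 1, 31 and 639 at day 4. Its mean level was 0.464 ± 0.585 CPM in myoblasts and 12.5 ± 18.7 CPM at day 4 (SD, n = 3), so that the spread at day 4 exceeds the mean. The log2 change was 4.47 ± 0.89 (SE, edgeR adjusted p = 0.0093). In the same cultures it had 0, 6 and 30 reads at day 1 and 0, 6 and 1 at day 2, so in culture 27 day 2 lay under both day 1 and day 4. After a correction of each library for GC content and length it was still called (log2 change 3.94, edgeR adjusted p = 0.0286), and the other 32 were not. At Rin2, for example, the log2 change was 4.80 without the correction and 3.97 with it (edgeR adjusted p = 0.071 with the correction). The other 8 tested fragments of Vwf were not called, and their log2 changes lay between -1.68 and 1.95.

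The Dnmt3a fragment printed above lies in an intron of the gene of the de novo methyltransferase. It had 0, 4 and 12 reads in the myoblasts of cultures 21, 26 and 27, and 0, 17 and 586 at day 4. Culture 21 gave no read at either stage. The log2 change was 3.66 ± 0.93 (SE, edgeR adjusted p = 0.0458), and 0.526 ± 0.518 CPM in myoblasts stood against 11.0 ± 17.5 CPM at day 4 (SD, n = 3). At day 2 it had 0, 6 and 0 reads. The neighbouring tested fragment of Dnmt3a, in another intron, had a log2 change of -0.11 ± 0.51 (SE).

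Further called fragments lay at Prex1, Slit1 and Gdpd3. Prex1, an exchange factor for Rac GTPases, had 0, 2 and 4 reads in the myoblasts of cultures 21, 26 and 27 and 4, 14 and 177 at day 4 in an intron (log2 change 3.99 ± 0.96, SE, edgeR adjusted p = 0.0392). Slit1, a secreted axon guidance factor, had 3, 3 and 6 reads and then 8, 28 and 268. Prex1 and Slit1 are the called fragments whose day 4 levels all lay above all myoblast levels. In cultures 26 and 27 the filter and the call largely set this. Gdpd3, a phosphodiesterase of lysophospholipids, was covered at its promoter and exons by 5, 26 and 36 reads in myoblasts and by 14, 144 and 636 at day 4 (log2 change 2.53 ± 0.64, SE, edgeR adjusted p = 0.0458). It was at least 2-fold higher in all 3 cultures, yet its lowest day 4 level, 1.90 CPM in culture 21, lay under the myoblast levels of cultures 26 and 27.

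Several lay in CpG islands. Rin2, an exchange factor for Rab5, had 0, 2 and 5 reads in myoblasts and 0, 13 and 530 at day 4 in its promoter island (log2 change 4.80 ± 1.05, SE, edgeR adjusted p = 0.018). Rap1gap2, which switches off Rap1, had 0, 12 and 20 reads and then 1, 52 and 1126 in an intronic island. Culture 27 holds most of the day 4 reads in both. Further called fragments in islands lay at Fgf17, a fibroblast growth factor, Corin, the protease that activates pro-ANP, Tnfrsf13b, a receptor of B cells, Slc16a9, Tmtc1 and Mapre2. The Susd4 fragment, in a coding exon outside islands, had 2, 23 and 27 reads and then 2, 135 and 829 (log2 change 2.85 ± 0.71, SE, edgeR adjusted p = 0.0458). In day 1 and day 2 libraries of culture 26 it had 38 and 126 reads, and in those of culture 27 it had 14 and 0.

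The days in between do not form a steady course in culture 27. In CPM without TMM scaling, the 33 fragments took 155 in culture 27 at day 1 and 1.40 at day 2, before the 1566 at day 4. The same values for days 1 and 2 were 3.79 and 9.26 in culture 21 and 33.6 and 89.8 in culture 26. In culture 26 the myoblast value of 40.1, that of day 2 and the 172 of day 4 rise in order, and day 1 lies just under the myoblasts. In the other libraries, the same fragments took 6.87 and 9.03 CPM in the passage 0 myoblasts of cultures 26 and 27, 20.2 to 38.8 in the 3 of adult muscle, and 59.8 and 90.0 in myoblasts freshly isolated and freshly isolated after injury (1 library each). The 4 libraries of embryonic stem cells ranged from 6.12 to 311.

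**Figure D2:**
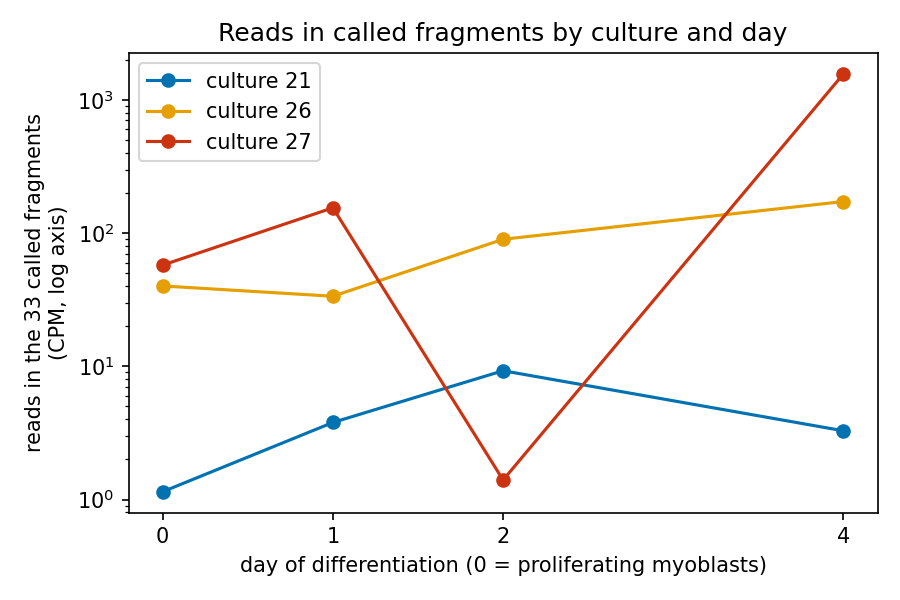
Reads in the 33 called fragments, in CPM over fragments under 2000 bp (y axis, log scale) by day of differentiation (x axis, 0 is the myoblast stage), 1 library per point and 1 line per culture. Culture 27 reaches 1566 at day 4 after 1.40 at day 2, and culture 26 ends at 172.

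The called fragments shared sequence features. All 33 overlapped no annotated repeat, whereas 8962 of the 16481 tested fragments did not. They had a median GC content of 58.8%, against 50% for all tested, and a median length of 418 bp against 699 bp. Of the 33, 11 overlapped a CpG island (1.43% of the 770 island fragments tested) and a further 4 a shore, the flank of an island. Promoter windows, from 2000 bp before to 500 bp after a transcript start, held 14 of them, 0.574% of 2439. Between genes there were 5 of 7136 fragments, 0.0701%. Among LINE, LTR and SINE fragments 0 were called by edgeR, and at an unadjusted p under 0.05 there were 42 higher and 41 lower LINE fragments, 31 and 8 LTR, and 45 and 8 SINE.

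GC content moved with the difference between stages, in opposite directions in different cultures. The tested fragments were split by GC content into 5 bins of equal size. In the bin of lowest GC the median log2(CPM + 0.5) difference was 0.55 in culture 21, 0.12 in culture 26 and -0.46 in culture 27. In the bin of highest GC it was -0.47, -0.33 and 0.45. GC-rich fragments thus stood lower at day 4 than GC-poor ones in cultures 21 and 26 and higher in culture 27. From the lowest to the highest bin, 0, 0, 2, 8 and 23 fragments were called. With each library corrected for GC content and length together, 1 of the 33 remained called. The log2 changes of the other 32 then ran from 2.02 to 4.16 with edgeR adjusted p from 0.071 to 0.22. Without the correction those of all 33 ran from 2.53 to 4.85. Fragments at an unadjusted p under 0.05 then numbered 1223, against 794 without the correction. The part of GC content alone was not tested.

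**Figure D3:**
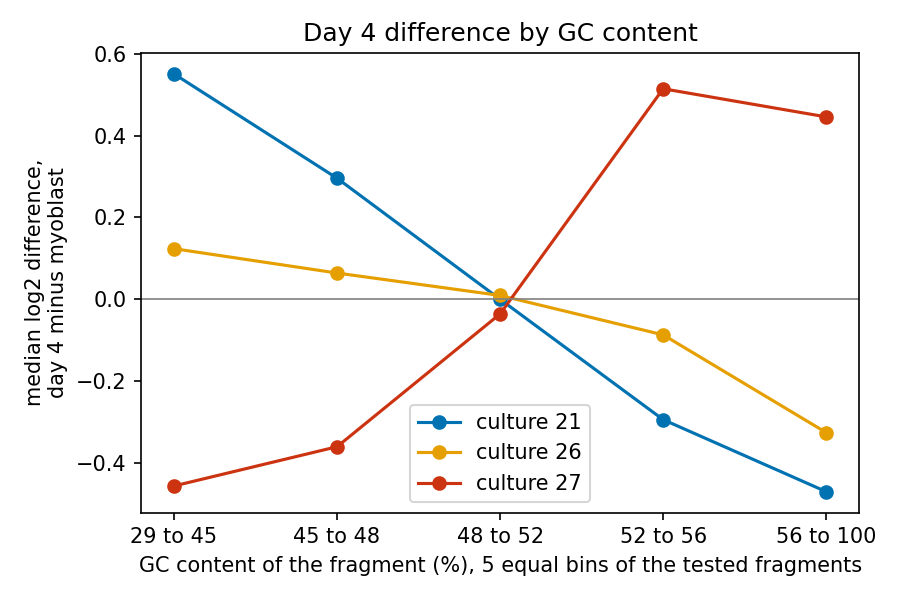
Median log2 difference, day 4 minus myoblast on log2(CPM + 0.5) (y axis), in 5 equal bins of the tested fragments by GC content in percent (x axis), 1 line per culture. The lines of cultures 21 and 26 go down, from 0.55 to -0.47 and from 0.12 to -0.33, and that of culture 27 goes up, from -0.46 to 0.45.

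The share of reads in CpG islands was higher at day 4 in culture 27 and lower in the other 2. Islands took 0.298%, 1.23% and 1.40% of the reads in the myoblasts of cultures 21, 26 and 27, and 0.239%, 1.09% and 4.40% at day 4. The mean difference was 0.933 ± 1.79 percentage points (SD of the 3 differences). In the day 1 and day 2 libraries of culture 27 it was 4.27% and 1.14%. The median log2(CPM + 0.5) difference of island fragments was 0 in culture 21, -0.17 in culture 26 and 1.57 in culture 27. In adult muscle the island share was 1.58% to 4.72%, and in passage 0 cells it was 0.591% in culture 26 and 0.220% in culture 27.

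Transposable elements went the other way in culture 27. Fragments in LTR elements, the remains of retroviruses, took 15.1%, 13.7% and 16.4% of the reads in the myoblasts of cultures 21, 26 and 27 and 16.2%, 14.05% and 12.5% at day 4. SINE fragments took 19.8%, 18.3% and 18.6% and then 21.3%, 18.6% and 15.9%. Both classes were thus higher in cultures 21 and 26 and lower in culture 27. LINE fragments were the only one of 10 classes to go the same way in every culture: 7.45%, 7.45% and 8.89% in myoblasts stood against 7.26%, 7.27% and 8.03% at day 4. The mean difference of the LINE share was -0.414 ± 0.386 percentage points (SD of the differences, 3 pairs; exact permutation test within cultures, 2-sided p = 0.25, the smallest that 3 pairs allow). After adjustment over the 10 classes all p were 1.

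**Figure D4:**
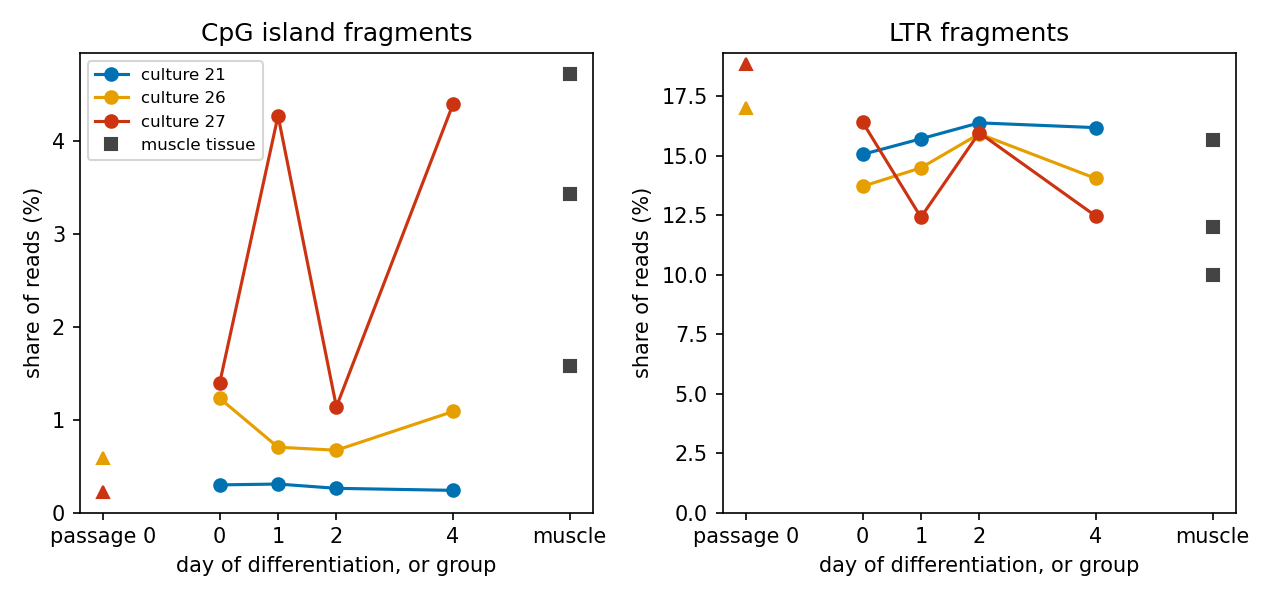
Share of the reads of each library, in percent (y axis), in fragments of CpG islands (left) and of LTR elements (right), by day of differentiation for the 3 cultures, with passage 0 cells of cultures 26 and 27 and 3 libraries of adult muscle beside them (x axis). In culture 27 the island share is 4.27% at day 1 and 4.40% at day 4 but 1.14% at day 2, and the LTR share goes the opposite way.

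The largest LINE family among the tested fragments was L1Md_A, of which some copies can still move in the mouse. Of its 1452 tested fragments, 396 (27.3%) were lower at day 4 in all 3 cultures and 56 were higher in all 3, where 10.5% of all tested fragments were lower in all 3. Among all tested fragments, 452 of 2449 under 200 bp and 587 of 3296 in the bin of highest GC were lower in all 3. The part of length and GC content in the L1Md_A count was not tested. The LINE class as a whole had 592 fragments lower in all 3, of which L1Md_A gave these 396. Its median log2(CPM + 0.5) differences were -0.56 in culture 21, -0.34 in culture 26 and 0.07 in culture 27, so the median of culture 27 was not below 0. L1Md_F3 was lower in all 3 cultures at 20 of 54 fragments, with medians of -0.15, -0.32 and -0.72. L1_Mus1 had 13 such fragments of 168, with medians of 0.39, 0.17 and -0.17. These families were looked at after the values of single fragments had been seen, and none of their fragments was called. Their copies resemble each other, and how reads with several matches were placed is not given in the sources used here.

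The fragments that differed at least 2-fold the same way in all 3 cultures, picked from their values and given without a test, were few. On the lower side were 4 pieces of L1Md_A and an intron of Ccnd3, the gene of the D-type cyclin that muscle cells keep after leaving the cell cycle. The printed L1Md_A fragment in an intron of Gng12, a G protein gamma subunit, had 100, 148 and 201 reads in the myoblasts of cultures 21, 26 and 27 and 29, 76 and 144 at day 4. That is 16.4 ± 4.23 CPM against 6.60 ± 2.33 CPM (SD, n = 3), and the groups did not overlap. The Ccnd3 fragment, which overlaps a SINE, had 12, 22 and 19 reads and then 2, 11 and 10, also without overlap of the levels. Of the 4 L1Md_A pieces, 2 lie side by side on chromosome 15 (61 bp and 95 bp) with equal counts in every library, so they are a single measurement.

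On the higher side were Prex1, Gdpd3, a fragment between genes (chr4:105858751-105859680), and fragments of Pcyt2, Plekhg3 and Dscc1. Pcyt2, an enzyme of phosphatidylethanolamine synthesis, had 0, 47 and 79 reads in the myoblasts of cultures 21, 26 and 27 and 5, 138 and 916 at day 4 in a shore (log2 change 2.25 ± 0.65, SE, edgeR adjusted p = 0.0979). The promoter island of Dscc1, which helps to load the replication clamp in dividing cells, had 32, 97 and 336 reads and then 60, 250 and 1704 (log2 change 1.27 ± 0.53, SE, edgeR adjusted p = 0.598). The fragment on chromosome 4 had 60, 47 and 211 reads and then 116, 144 and 931. At Pcyt2, Dscc1 and the fragment on chromosome 4, the myoblasts of at least 1 culture lay above the day 4 cells of another.

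None of the tested fragments at the muscle genes was called. Of 14 such genes, 10 had a tested fragment and Myod1, Myog, Myf6 and Cdh15 had none. A difference of at least 0.95 on log2(CPM + 0.5) in every culture was found at the promoter shore of Mef2c (chr13:83661913-83662523), the gene of a MADS-box factor that works with the MyoD family. It had 116, 199 and 193 reads in the myoblasts of cultures 21, 26 and 27 and 250, 490 and 718 at day 4. The level was 19.12 ± 7.02 CPM in myoblasts and 41.7 ± 9.90 CPM at day 4 (SD, n = 3), and all day 4 levels lay above all myoblast levels. The log2 change was 1.16 ± 0.51 (SE, edgeR adjusted p = 0.746). Day 1 libraries had 139, 588 and 467 reads and day 2 libraries 243, 540 and 873.

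The fragment of Myf5, the factor that marks committed myoblasts, had 8, 49 and 91 reads in the myoblasts of cultures 21, 26 and 27 and 9, 58 and 459 at day 4. Culture 27 stood far above the others, and the log2 change was 0.69 ± 0.62 (SE, edgeR adjusted p = 1). On a scale common to all 23 libraries it lay at 24.2 to 62.3 CPM in muscle and at 11.3 and 5.04 CPM in passage 0 cells of cultures 26 and 27. Pax7, the factor of satellite cells, the stem cells of muscle, had 6 tested fragments. Its island fragment of smallest p had 0, 13 and 14 reads and then 0, 31 and 192 (log2 change 2.01 ± 0.84, SE, edgeR adjusted p = 0.615), and the others lay between -0.38 and 0.98 in log2 change. The promoter island of Pax3, its paralogue in the embryo, had 28, 70 and 289 reads and then 15, 124 and 882.

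Fragments at Acta1, Ckm and Des differed in opposite directions in different cultures, and those named at Ryr1 and Neb were lower in each. The promoter of Acta1, skeletal actin, had 58, 559 and 338 reads in the myoblasts of cultures 21, 26 and 27 and 18, 396 and 1334 at day 4, so it was lower in 2 cultures and higher in culture 27. The promoter of Ckm, muscle creatine kinase, had 95, 1 and 100 reads and then 28, 1 and 330. Des, the intermediate filament of muscle, went the other way with 3324, 2734 and 2712 reads and then 5377, 2365 and 2628 in a coding exon. The log2 changes were -0.31 ± 0.54, -0.22 ± 0.71 and -0.14 ± 0.50 (SE), and each of them changes sign without the culture block. A coding exon of Ryr1, the calcium release channel, was lower in each culture, with 1012, 3302 and 814 reads and then 482, 2593 and 1111 in libraries of differing depth (log2 change -0.60 ± 0.46, SE). A promoter fragment of Neb, the thin filament protein nebulin, overlaps an LTR element. It had 43, 6 and 13 reads and then 23, 1 and 1 (log2 change -2.0 ± 0.80, SE, edgeR adjusted p = 0.552).

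**Figure D5:**
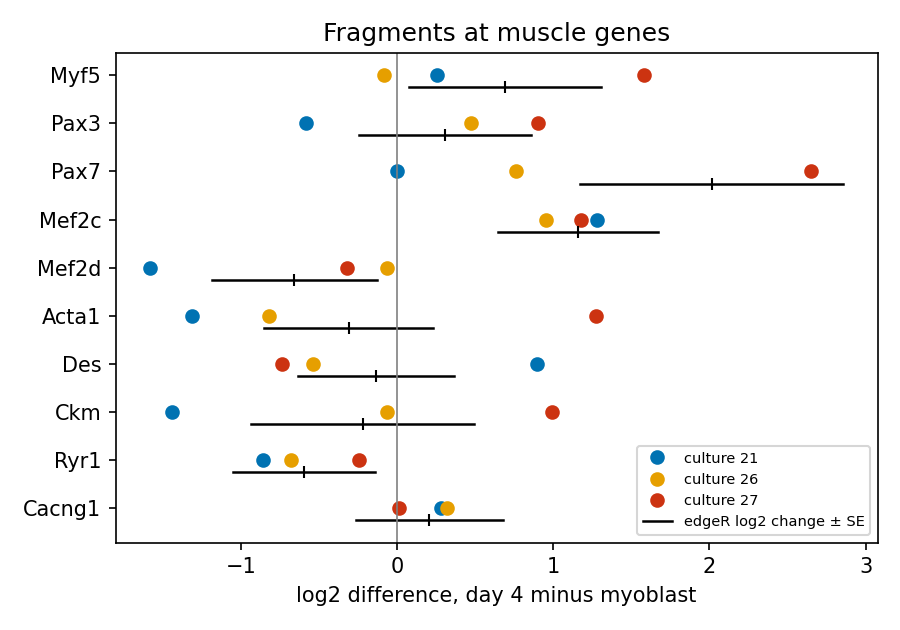
Log2 difference, day 4 minus myoblast (x axis), at the tested fragment of smallest p of each of 10 muscle genes (y axis): points are the 3 cultures on log2(CPM + 0.5), and the black bar under them is the edgeR log2 change with its SE. Only at Mef2c do the 3 points lie close together and well above 0, and none of the 10 fragments was called.

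Wider groups of genes held few calls. The 19 lists of genes held 440 tested fragments, of which 2 were called beside 33 of all 16481 (0.2%), Dnmt3a among 10 of the DNA methylation machinery and Vwf among 31 of endothelial genes. List medians of the log2 change ran from -0.12 (signalling in muscle cells, 41 fragments) to 0.44 (DNA methylation machinery), beside -0.01 for all tested. Myogenic regulators had a median of 0.42 over 28 fragments, with 4 higher and 0 lower at an unadjusted p under 0.05, beside 712 and 82 of all 16481, and 0 called by edgeR or DESeq2. Contractile genes had -0.08 over 35, with 2 and 1. Markers of other cells, which say nothing of expression here, had medians of -0.04 (fibroblast, 27), -0.07 (endothelial), 0.30 (blood, 25), 0.13 (adipocyte, 31) and 0.16 (neural, 32). In 12 of the 19 lists the highest median of the 3 cultures was that of culture 27. Within cultures 21, 26 and 27, the median log2 difference of myogenic regulators was 0, 0.004 and 1.12. That of the DNA methylation machinery was 0.03, -0.08 and 0.84. Both of these lists thus had a median well above 0 only in culture 27.

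The uncalled fragment of smallest p in 6 of the lists passed the test once culture 21, whose libraries had few reads there, was left out. That fit called 296 of 16185 tested fragments higher, against 33 of 16481 with all cultures. These fragments were picked for a small p in overlapping data, so passing is no separate result about them. Trp73, a relative of p53, had 0, 5 and 2 reads in the promoter island in the myoblasts of cultures 21, 26 and 27 and 0, 11 and 318 at day 4 (log2 change 3.69 ± 1.06, SE, edgeR adjusted p = 0.0936, and 0.0118 without culture 21). Runx3, a factor of blood cells, had 0, 3 and 5 and then 0, 14 and 220 (0.0825, and 0.00978 without culture 21, edgeR adjusted p). Mef2b had 3, 12 and 20 reads and then 5, 37 and 437 in a coding exon (0.242 and 0.0340, edgeR adjusted p), and the imprinted Grb10 had 1, 14 and 31 and then 0, 46 and 636 at its promoter island (0.258 and 0.0312). None passed without culture 27 or without culture 26: Mef2b stood at log2 1.19 and Grb10 at 1.11 without culture 27 (edgeR adjusted p = 0.929 for both), and both had an edgeR adjusted p of 1.00 without culture 26, while Trp73 and Runx3 had too few reads to be tested in either fit. Most day 4 reads of each came from culture 27. Myoz3 and Nphs1 are the others.

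Among lower fragments of a gene with the same sign in all cultures, that of smallest p lay at the promoter of Kif2c, a kinesin of dividing cells that works at the centromere. This fragment overlaps a SINE. It had 113, 51 and 102 reads in the myoblasts of cultures 21, 26 and 27 and 22, 45 and 33 at day 4, or 9.68 ± 3.29 CPM against 3.20 ± 1.56 CPM (SD, n = 3). The groups did not overlap, and the log2 change of -1.67 ± 0.61 (SE) had an edgeR adjusted p of 0.396. Day 1 had 207, 92 and 30 reads and day 2 had 140, 73 and 21, so culture 27 was low from day 1 and culture 21 only at day 4. In the authors' deposited table its adjusted p was 0.121 with pooled dispersion and 0.0197 with dispersion per condition.

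The authors' deposited table of the same stages lists 8 fragments with an adjusted p under 0.05 with pooled dispersion, 3 higher and 5 lower. All 8 were tested here and 0 were called. Each of the 8 had differences of the same sign in all 3 cultures. A fragment between genes (chr15:27256429-27256768) had 3762, 2354 and 3316 reads in the myoblasts of cultures 21, 26 and 27 and 5877, 5123 and 6992 at day 4, and the log2 change in the authors' deposited table is 0.60 with an adjusted p of 8.5e-05. Its edgeR log2 change was 0.67 ± 0.50 (SE). The intron fragment of Gpc6, a cell surface proteoglycan, overlaps a SINE and had 721, 425 and 546 reads and then 1187, 788 and 1079. An intron of Scn4a, the sodium channel of skeletal muscle, had 183, 102 and 157 reads and then 90, 96 and 130, and its groups did not overlap after scaling (16.3 ± 4.55 CPM against 9.83 ± 2.68 CPM, SD, n = 3). With dispersion per condition the authors' deposited table has 780 of the fragments under an adjusted p of 0.05, 535 higher and 245 lower. Among all 16481 fragments tested here, 496 are in that set. Of the 33, 21 are in it, which is 2.69% of that set and 63.6% of the 33. Both sets compare the same stages of this series, so the overlap is no independent check.

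In libraries outside the comparison, adult muscle was set beside passage 0 myoblasts at the same fragments. Of the 33, 30 were higher in muscle (90.9%), with a median log2 difference of 1.02, where 50.2% of all tested fragments were higher with a median of 0.01. The levels behind this were low, with medians of 0.837 CPM in muscle and 0.0689 CPM in passage 0 cells. The passage 0 libraries are of cultures 26 and 27, whose myoblasts entered the calls, so this is no independent check, and the freshly isolated myoblasts, at 59.8 and 90.0 CPM in the 33 as given above, stood higher than muscle. Muscle libraries also had a higher island share, as given above, and the part of that share in the difference was not tested.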

How the data were processed

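Genomic DNA libraries were made by AIMS-seq, read on an Illumina GA2 and mapped against mm9 (source: protocols in the labels). Bowtie 0.11.3 and DESeq are listed per the submitters' processing notes; settings, read filters and the placing of reads with several matches are not given in the sources used here. The authors deposited raw read counts per fragment, and these were used. The authors' deposited comparison table gives DESeq p-values, adjusted for many tests, and log2 fold changes, which were only quoted.

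The 3 myoblast and 3 day 4 libraries were grouped by their labels. Counts were tested with edgeR 4.0.16 in R 4.3.3: filterByExpr (minimum count 10), TMM scaling, quasi-likelihood fit with the culture as a block, 2-sided test, Benjamini-Hochberg adjustment over the 16481 fragments, threshold 0.05. edgeR estimated an infinite prior, so no fragment had a spread of its own, and each took the value fitted over fragments of its read level. The common biological coefficient of variation was 0.403, with 2 residual degrees of freedom. The script was tested on simulated counts with a common spread, in which well-read fragments changed by the same fold in every culture. That test does not cover fragments with few reads or a change mostly in 1 culture. Each culture gave 1 library per stage, and p-values rest on the spread of the stage difference between these cultures, pooled over fragments. How well the cultures agreed at a single fragment does not enter its p-value. PCR reads carry no molecular identifiers. Log2 differences within a culture used a pseudocount of 0.5 CPM.

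The labels number the replicates by culture, and the samples were paired by these numbers. Library deviations from the stage means had a correlation of 0.86, 0.73 and 0.76 within cultures 21, 27 and 26, against -0.80 to 0.46 between cultures. Taking off the stage mean of 3 libraries by itself lowers the values between cultures. On log levels without this step, the myoblasts of cultures 21 and 26 had their highest correlation with their own day 4 library (0.96 and 0.97). Those of culture 27 had 0.86 with their own and 0.90 with that of culture 26.

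Genes came from GENCODE M1 on mm9; CpG island and repeat classes came from the deposited tables. Members and lists were chosen with earlier results of these data known. Named are the tested fragment of smallest p of 14 muscle genes; per gene list and direction the called fragment of smallest p, or an uncalled one where none was called; per direction the 8 called fragments of a gene with the smallest p and equal sign in every culture, and the 6 with the largest change at or above the median level (none was); and per direction the called one of smallest p in each island, shore and repeat class. Not all are printed, and any other was named after its values were seen. Alternatives were DESeq2 1.42.0, other scalings, filters, lengths and libraries, and leaving out each culture. Figures and summaries were made in Python 3.11.15.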

Additional observations from a re-analysis of the deposited data

How the results depend on the processing

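With the replicate block, 33 fragments were higher and 0 lower. The higher count was 0 with no replicate block, 0 with library totals, 0 with all 12 libraries of the cultures, 1 with a GC and length correction and the replicate block, 11 with DESeq2 and the replicate block, 50 with robust dispersion, 60 with no low-count filter, 71 with DESeq2 size factors and 86 with all lengths and chromosomes fitted. DESeq2 size factors moved the median of all fragments from -0.01 to 0.13. Leave-one-out fits gave 0 to 296 higher and 0 to 1 lower: 296 without culture 21 (replicate 1), 0 without culture 27 (replicate 2) and 0 without culture 26 (replicate 3), and the other settings gave 0 lower. All 33 remained called without culture 21, with no filter, with robust dispersion and with DESeq2 size factors. Only 12 of them had enough reads to be tested without culture 27, 22 without culture 26 and 21 with no replicate block. The causes were not tested. Called island fragments (11) numbered 0 with no replicate block, 4 with DESeq2, 28 with no filter and 0 to 68 in leave-one-out fits, and promoter fragments (14) 0, 4, 31 and 0 to 89.

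Without replicate 2, differences in read share changed sign: leave-one-out values were -0.100 to 1.47 percentage points for islands, -0.683 to 1.80 for promoters, -1.81 to 0.728 for LTR and -1.15 to 0.926 for SINE. Uncalled muscle genes also changed sign. Acta1 was 0.094 with no replicate block and -1.11 to 0.25 in leave-one-out fits, 0.034 being the value without replicate 3. Des was 0.18 with no replicate block, 0.042 with all lengths and -0.62 to 0.16 in leave-one-out fits, with 0.12 without replicate 3. Ckm was 0.16, 0.016 and -1.49 to 0.88, and Pax3 was -0.036 to 0.73. Fragments with few reads limit the precision: 32 of the 33 had under 10 reads in both libraries of culture 21.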
